A study of Mus musculus with 32 samples.

Results

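The genes described here are 9 regulators of apoptosis and mitophagy, Bax, Bcl2, Bcl2l1, Bcl2l2, Mcl1, Bnip3, Bnip3l, Casp9 and Cycs, followed in mouse heart. Their measurements are all probe sets, the short oligonucleotide groups that read 1 transcript on an Affymetrix array, whose single annotated gene symbol is 1 of these names. Of the 21458 probe sets with a single symbol on both array types, 15 met this rule, 13 of the first type and 2 of the second, and they covered 7 of the 9 genes. The probe sets with a single symbol name 13661 genes in all. Bax had no probe set of its own in the annotation used here, and the 1 probe set that names Bnip3l also names its pseudogene Bnip3l-ps, so these genes have no values below.

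Mitochondrial apoptosis is decided at the outer mitochondrial membrane, where Bax and its relatives open pores and Bcl2, Bcl2l1, Bcl2l2 and Mcl1 bind them and hold the pores shut. Cytochrome c, the product of Cycs, is an electron carrier of the respiratory chain that leaves through the pores, assembles with Apaf1 and activates caspase 9, the initiator caspase of this route. Bnip3 and Bnip3l sit in the same membrane and tether mitochondria to forming autophagosomes (mitophagy). In heart muscle, which is packed with mitochondria and renews its cells little, both processes have been studied as routes of cell loss during overload and ischaemia.

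Total RNA of cardiac ventricle came from mice with a cardiac specific AT1 transgene that were in cardiac failure, from such mice with cardiac hypertrophy, and from wild type mice. Each array type was hybridised to 3 failure, 8 hypertrophy and 5 wild type samples. What AT1 stands for and which promoter drives the transgene are not stated in the labels, nor are age, sex and strain. Nothing in them says that samples of a group are separate animals, so p-values measure only the spread between these samples, which may be technical. In whole ventricle, fewer cells of a type and less RNA per cell cannot be told apart.

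The summed signal of 8 ventricular cardiomyocyte markers, all 8 of which were tested, was 46799 to 47805 in failure, 42103 to 52165 in hypertrophy and 46932 to 51446 in wild type. With no other tissue to set beside them, these sums describe the arrays and do not test the ventricle label. Array medians of the first type lay between 91.8 and 121, with hypertrophy replicate 1 the lowest. Hypertrophy replicates 6 and 7 stood apart in RNA quality: the 5′ Gapdh control had 0.468 and 0.0487 of the signal of the 3′ control, against 0.889 ± 0.0543 in wild type (SD, n = 5). The same ratio for Actb was 0.960 ± 0.173 in failure (SD, n = 3), 0.701 ± 0.204 in hypertrophy (SD, n = 8) and 0.623 ± 0.0819 in wild type (SD, n = 5).

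The comparisons ask whether transcripts of the death and mitophagy machinery differ between transgenic hearts at each stage and wild type hearts, and between the stages. Signals are the deposited linear intensities. Before log2 was taken, values under the 20th percentile of an array type (39.5 for the first and 27.5 for the second) were raised to that floor. Testing with limma was limited to probe sets at or above the median of their array on at least 3 arrays, and 8 of the 15 were, from Bcl2, Bcl2l1, Bcl2l2, Mcl1, Casp9 and Cycs, all on the first type. Of the other 7, 3 lay below the floor on every array (1 each of Bcl2, Casp9 and, on the second type, Bnip3) and 4 were above it on all or all but 1 of the arrays but too dim for the filter (1 each of Bcl2l1, Casp9, Bnip3 and, on the second type, Bcl2). Changes are differences of group means on the log2 scale, given with their standard error, and a change with an adjusted p under 0.05 is a called one.

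None of the 8 tested probe sets was called in any comparison, and none had an unadjusted limma p under 0.05. In failure against wild type the share called among all tested probe sets of the first type was 0.143%, in hypertrophy against wild type it was 0%, and in failure against hypertrophy 0%, so 0 of 8 lies near the background. The shares with an unadjusted p under 0.05 were 10.7%, 4.47% and 10.1% in the same order. In failure against wild type 7 of the 8 changes were positive, with a median of 0.12 log2 units, beside 58.5% positive and a median of 0.04 over all tested probe sets. Array medians of the first type averaged 117 in failure and 109 in wild type. Scaling to a common median turned the changes of Bcl2 98869_g_at (-0.031), Bcl2l2 (-0.044) and Casp9 100367_g_at (-0.000153) negative. In hypertrophy against wild type 4 were positive and 4 negative, with a median of -0.03, beside 46.0% positive and -0.01 over all. In failure against hypertrophy 6 were positive, with a median of 0.18, beside 60.9% positive and 0.05 over all. The comparisons of failure and of hypertrophy with wild type share the same 5 wild type arrays. Of the 95% intervals of the 8 changes in failure against wild type, the lowest bound was -0.85 (Cycs) and the highest 0.68 (Mcl1). Widths differed between probe sets, and the interval of Bcl2 98870_at was -0.10 to 0.39. All 8 intervals held 0.

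**Figure D1:**
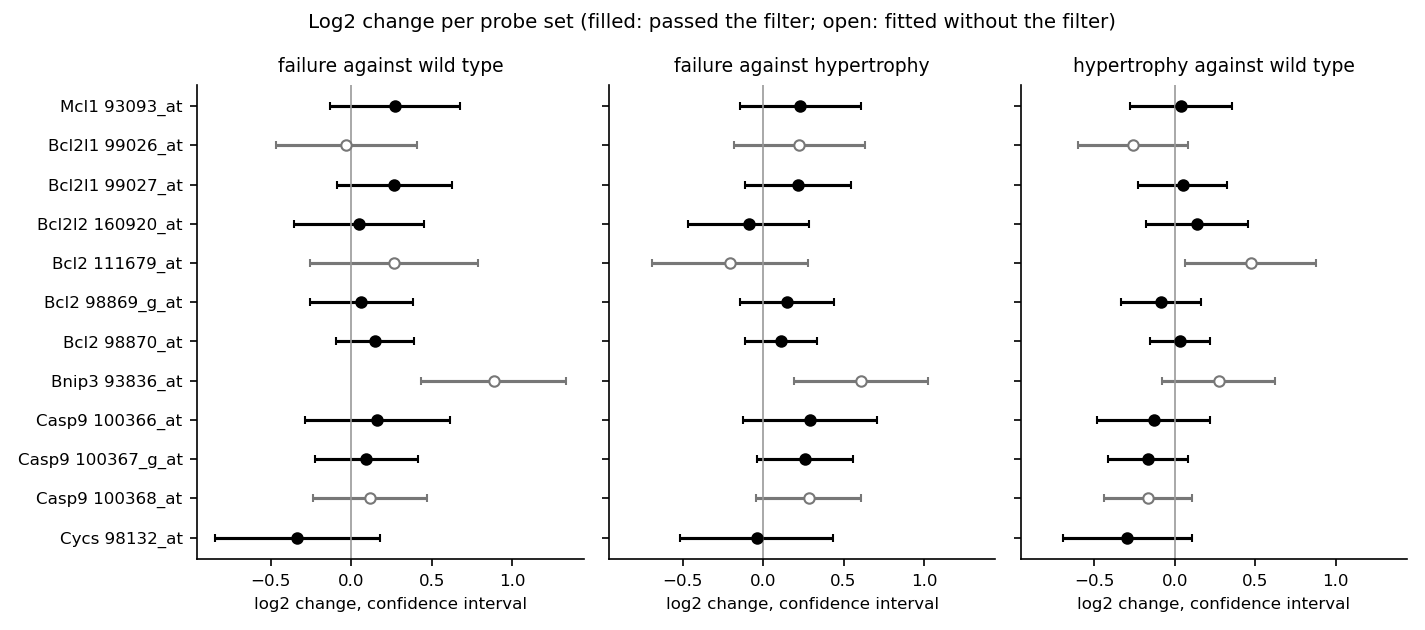
Log2 change of each member probe set above the floor in the 3 comparisons, with 95% intervals from limma. Filled points are tested probe sets and open points are those fitted only without the filter on dim probe sets. Bnip3 in failure against wild type, at 0.88, is farthest from 0, and of the tested probe sets Cycs lies lowest there, at -0.33.

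Bnip3, the mitophagy receptor and a known target of hypoxia-inducible factors, had the widest separation between failure and wild type of the members. Its gene lies at chr7:138890836-138909506 on the minus strand (GRCm38.p6). The 250 bases before its start, read from the RefSeq promoter table of that build, are shown because they hold several copies of the 5-base core that hypoxia-inducible factors bind, ACGTG or GCGTG, here in capitals on either strand.

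Bnip3, chr7:138909507-138909756, minus strand: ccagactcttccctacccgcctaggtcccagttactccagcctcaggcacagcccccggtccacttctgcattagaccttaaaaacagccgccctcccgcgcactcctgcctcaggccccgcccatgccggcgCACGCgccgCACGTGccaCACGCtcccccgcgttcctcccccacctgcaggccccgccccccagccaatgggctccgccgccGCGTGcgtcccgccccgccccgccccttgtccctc

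The run CACGTG, 108 bases before the start, holds ACGTG on both strands, and GCGTG occurs 3 times, at 117, 99 and 35 bases. Cores of this kind are common: 38.6% of the 32851 promoters in the table hold either form in the same window, and 6.02% hold CACGTG. Other members hold them as well: ACGTG occurs 2 times before Bax, as 1 run of CACGTG read on both strands, and 1 time before Cycs. GCGTG occurs 2 times each before Casp9 and Cycs, and 1 time before 1 of the 3 Bcl2l1 starts. A match describes these letters and is no evidence of binding.

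The Bnip3 probe set 93836_at gave signals of 88.4, 123 and 114 in the 3 failure samples. In the 8 hypertrophy samples the lowest was 51.6, the median 73.6 and the highest 95.2, and the 5 wild type samples had 68.9, 47.3, 56.6, 49.6 and 72.6. Every failure sample was above every wild type sample, and failure replicates 2 and 3 were also above every hypertrophy sample, while hypertrophy and wild type overlapped. Group means were 108 ± 17.8 in failure (SD, n = 3), 71.7 ± 15.1 in hypertrophy (SD, n = 8) and 59.0 ± 11.3 in wild type (SD, n = 5). Failure replicates 2 and 3 were the only arrays on which Bnip3 reached the array median, 1 short of the filter, so it has no place in the counts above.

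Fitted without the filter, Bnip3 differed by 0.88 ± 0.21 between failure and wild type (1.85-fold, 95% interval 0.43 to 1.33, unadjusted p = 0.000901). It ranked 80 of 12422 probe sets by p, and its adjusted p of 0.140 was above the threshold, which 0.177% of the probe sets in that fit passed. Over the other settings tried without the filter the change ran between 0.73 and 1.05 and the adjusted p between 0.0739 and 0.329, and leaving out each array in turn gave 0.79 to 1.02 with adjusted p-values of 0.0913 to 0.572. None of these fits called it. Against hypertrophy the failure samples differed by 0.61 ± 0.19 (adjusted p = 0.340), and hypertrophy differed from wild type by 0.27 ± 0.16 (adjusted p = 1). Failure samples lay wholly above wild type samples in 7.99% of the unfiltered probe sets of the first type, so separation of this kind was not rare.

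Other measures also stood higher in failure than in wild type samples. The Actb ratio was 0.765 to 1.10 in failure and 0.545 to 0.752 in wild type, and with that ratio as a covariate the Bnip3 change was 1.05. These ranges do not overlap, so on the first array type the ratio and the group cannot be told apart. The same limit holds for every covariate value of failure against wild type given below. Atrial cardiomyocyte markers, of which 3 of 4 were tested, summed to 4051 to 5901 in failure and 1180 to 3344 in wild type. Such a sum follows the brightest markers: 2 of the 3 had positive changes and 1 a negative one, from -0.61 to 1.60. Fibroblast markers, all 7 of them tested, summed to 6243 and 7006 in failure replicates 1 and 2 and 3353 to 4090 in wild type, and to 3348 in failure replicate 3, where Bnip3 was 114. The part of the Actb ratio and of atrial and fibroblast markers in the Bnip3 difference was not tested beyond this. The second array type carried 1 Bnip3 probe set, 164673_r_at, whose highest signal on any array was 10.4, far below its floor, so it gave no second reading.

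**Figure D2:**
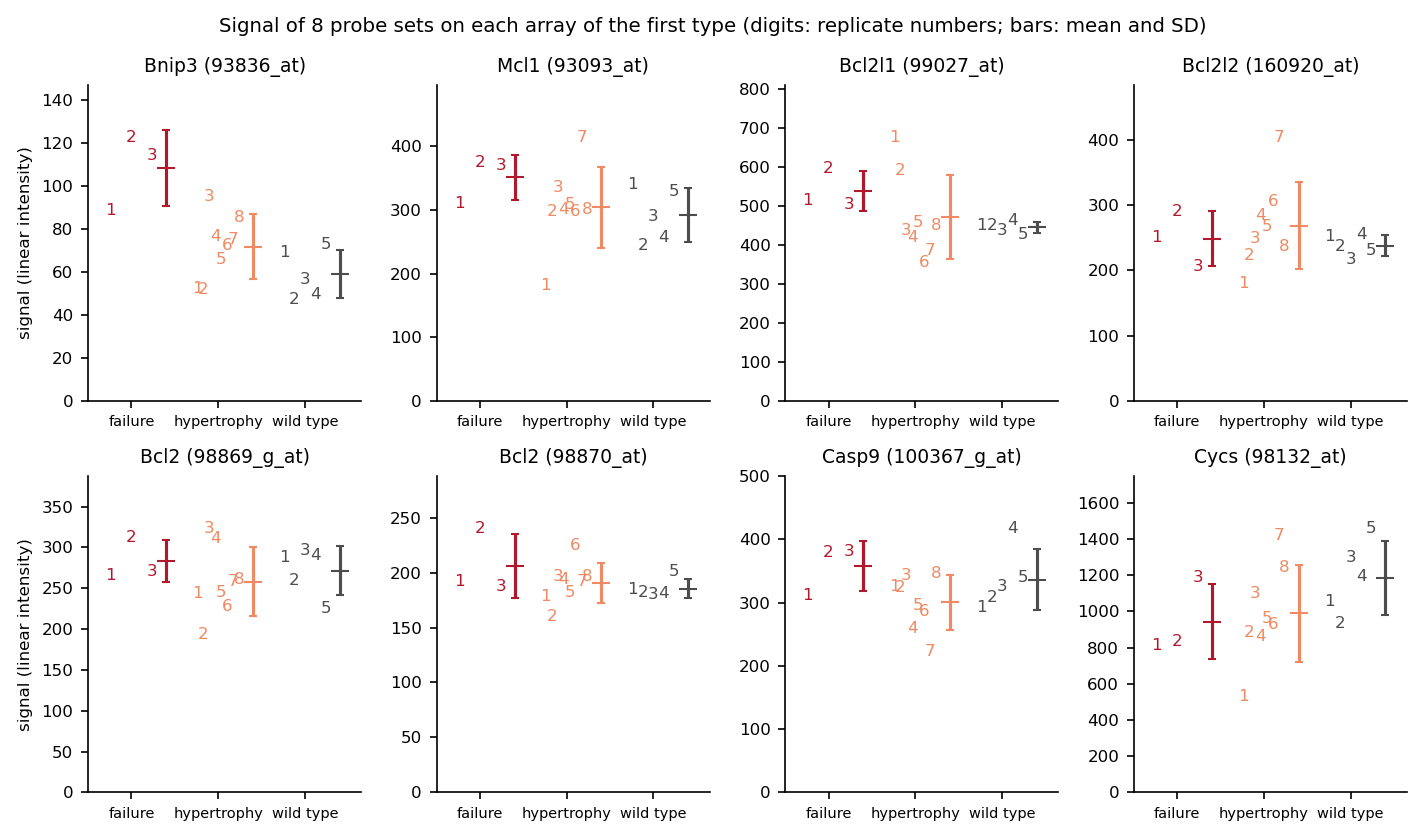
Signal (linear intensity) of 8 probe sets on each array of the first type, with failure, hypertrophy and wild type from left to right, digits for replicate numbers and bars for the mean and SD of a group. Failure lies wholly above wild type for Bnip3 93836_at and Bcl2l1 99027_at, and the groups overlap in the other panels.

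Among the inhibitors of pore formation, Bcl2l1 (Bcl-xL) was the tested gene whose failure and wild type samples did not overlap. Its probe set 99027_at gave 513, 595 and 504 in failure, 354 to 676 with a median of 442 in hypertrophy, and 451, 449, 437, 463 and 427 in wild type. All 3 failure samples were higher than all 5 wild type samples, as in 8.58% of the tested probe sets, and hypertrophy spanned both. The change in failure against wild type was 0.27 ± 0.17 (95% interval -0.09 to 0.62, adjusted p = 0.623). The model shares 1 estimate of spread over the groups, whose SDs were 50.4 in failure, 108 in hypertrophy and 13.8 in wild type. The highest hypertrophy values, 676 and 589 in replicates 1 and 2, came with Actb ratios of 0.992 and 0.870, and the lowest, 354 and 385 in replicates 6 and 7, with ratios of 0.563 and 0.357. Hypertrophy replicates 3, 4, 5 and 8, with ratios of 0.848, 0.599, 0.624 and 0.756, had 435, 418, 458 and 449. The failure samples with ratios of 1.10, 0.765 and 1.02 had 513, 595 and 504. The wild type samples with ratios of 0.545, 0.568, 0.648, 0.603 and 0.752 had 451, 449, 437, 463 and 427. With the Actb ratio as a covariate the difference between failure and wild type was -0.0057. The part of RNA quality in this difference was not tested further.

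The other Bcl2l1 probe set above the floor, 99026_at, did not follow the first. It gave 114, 86.6 and 85.4 in failure, 54.1 to 110 with a median of 83.4 in hypertrophy, and 96.2, 102, 88.3, 108 and 90.3 in wild type. Failure samples fell on both sides of the wild type range. Over the 16 arrays its log2 values had a Pearson r of -0.315 with those of 99027_at, and without the filter its change in failure against wild type was -0.03 ± 0.20 (adjusted p = 1). No direction for the gene can be taken from probe sets that differ in this way.

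Mcl1, a short-lived inhibitor needed for survival of mouse heart muscle cells, had signals of 310, 374 and 369 in failure. In hypertrophy they were 182 to 414 with a median of 300, and in wild type 341, 244, 290, 257 and 329. Failure replicates 2 and 3 were above all wild type samples and replicate 1 was not, and the difference of 0.27 ± 0.19 did not pass the test (adjusted p = 0.672). Hypertrophy held both the lowest and the highest of the 16 values, in replicates 1 and 7. With the Actb ratio as a covariate the difference between failure and wild type was 0.60, and it still did not pass. Bcl2l2 (Bcl-w), another inhibitor, also spread widely in hypertrophy: 250, 289 and 205 in failure, 180 to 404 with a median of 258 in hypertrophy, and 252, 236, 217, 255 and 230 in wild type. Of the failure samples, 1 was above, 1 within and 1 below the wild type range, and the difference was 0.05 ± 0.19 (adjusted p = 0.966). With the Actb covariate it was 0.54, with an adjusted p of 0.0719, the lowest of any tested member in that comparison under the settings tried, leaving out single arrays aside.

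Bcl2, the founding member of the family, was read by 4 probe sets, 2 of them tested, both designed from the same GenBank entry. Of these, 98869_g_at gave 266, 313 and 271 in failure, 193 to 323 with a median of 252 in hypertrophy, and 287, 259, 297, 290 and 225 in wild type, and differed by 0.06 ± 0.15 between failure and wild type (adjusted p = 0.931). Probe set 98870_at gave 192, 240 and 187 in failure, 160 to 224 with a median of 193 in hypertrophy, and 184, 181, 180, 181 and 201 in wild type, and differed by 0.14 ± 0.11 (adjusted p = 0.710). Both are near their wild type level in failure replicates 1 and 3 and highest among the failure samples in replicate 2. They correlated only weakly with each other (Pearson r 0.326 over the 16 arrays).

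The Bcl2 probe set of the second array type, 111679_at, was dim but above the floor on all but 1 wild type array. It gave 41.1, 42.1 and 36.8 in failure, 34.0 to 74.1 with a median of 44.0 in hypertrophy, and 33.3, 32.0, 26.0, 39.6 and 34.7 in wild type. Most hypertrophy samples were above the wild type range and the others lay within it. Without the filter the hypertrophy samples differed from wild type by 0.47 ± 0.19, with an unadjusted p of 0.0266 and an adjusted p of 0.514. In the same unfiltered fit of the second type 0.105% of probe sets were called in that comparison and 8.21% had an unadjusted p under 0.05. The tested Bcl2 probe sets of the first type gave -0.09 ± 0.12 and 0.03 ± 0.09 for hypertrophy against wild type, both near 0.

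On the executing side of the pathway, Casp9 was read by 4 probe sets, of which 100366_at and 100367_g_at were tested. Probe set 100367_g_at gave 312, 380 and 381 in failure, 223 to 347 with a median of 310 in hypertrophy, and 292, 308, 325, 417 and 340 in wild type. Failure replicates 2 and 3 were above every hypertrophy sample, and failure lay inside the wild type range. The difference of failure from hypertrophy was 0.26 ± 0.14 (95% interval -0.04 to 0.56, adjusted p = 0.553), the smallest p among the tested members in any comparison. Probe set 100366_at gave 131, 129 and 149 in failure, 75.6 to 153 with a median of 107 in hypertrophy, and 123, 92.7, 142, 109 and 151 in wild type, and its difference of failure from hypertrophy was 0.29 ± 0.20 (adjusted p = 0.663). The third, 100368_at, fitted without the filter, gave 98.7, 106 and 95.0 in failure, 67.4 to 119 with a median of 81.6 in hypertrophy, and 92.5, 91.7, 102, 69.7 and 109 in wild type. Its difference of failure from hypertrophy was 0.28 ± 0.15 (adjusted p = 0.635). With the Actb covariate these differences were 0.089 for 100367_g_at, 0.16 for 100366_at and 0.32 for 100368_at. None of the 3 Casp9 readings passed the threshold, with correlations between them of 0.166 to 0.447 over the 16 arrays.

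Cycs was the 1 tested member with a lower mean in both transgenic groups. Its gene lies at chr6:50562563-50566569 on the minus strand (GRCm38.p6). The 250 bases before its start are shown because they hold letters bound by regulators of respiratory chain genes: capitals mark TGACGTCA, the binding site of cAMP response element binding protein, and GCATGCGC, the longer part of the site of nuclear respiratory factor 1 (RefSeq promoter table). The copies of ACGTG and GCGTG in this window are not capitalised.

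Cycs, chr6:50566570-50566819, minus strand: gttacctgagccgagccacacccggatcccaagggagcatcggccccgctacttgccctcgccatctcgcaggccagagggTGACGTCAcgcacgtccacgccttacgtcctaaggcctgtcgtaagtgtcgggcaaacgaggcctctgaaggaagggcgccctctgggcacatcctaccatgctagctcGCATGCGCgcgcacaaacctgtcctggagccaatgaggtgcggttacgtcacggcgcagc

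TGACGTCA begins 169 bases and GCATGCGC 60 bases before the start. In windows of this length 1.55% of the 32851 promoters hold the first on either strand and 2.26% the second, so both are uncommon in this window, as a description only. Among the members Bax also holds GCATGCGC, 64 bases before its start.

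Signals of Cycs probe set 98132_at were 811, 835 and 1185 in failure, 529 to 1418 with a median of 943 in hypertrophy, and 1056, 932, 1297, 1191 and 1456 in wild type. Failure replicates 1 and 2 were below every wild type sample and replicate 3 was not, and hypertrophy covered nearly the whole range. Means were 944 ± 209 in failure (SD, n = 3), 990 ± 268 in hypertrophy (SD, n = 8) and 1187 ± 204 in wild type (SD, n = 5). The differences from wild type were -0.33 ± 0.24 in failure (95% interval -0.85 to 0.18, adjusted p = 0.679) and -0.30 ± 0.19 in hypertrophy (adjusted p = 0.960). With the Actb ratio as a covariate the difference of failure from wild type was -0.07, where ratio and group cannot be told apart.

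**Figure D3:**
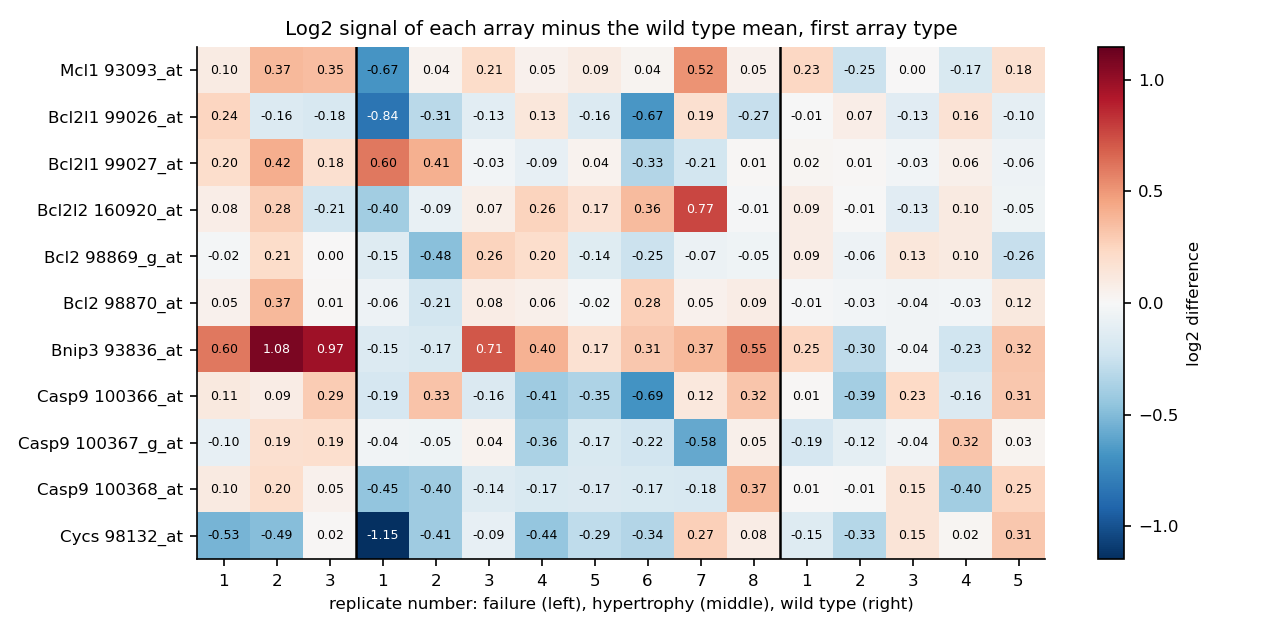
Heat map of the log2 signal minus the wild type mean for each member probe set above the floor on the first array type (rows) and each array (columns: failure, hypertrophy, wild type). Hypertrophy replicate 1 is low for Cycs, Bcl2l1 99026_at, Mcl1, Casp9 100368_at and Bcl2l2 and high for Bcl2l1 99027_at. Bnip3 is high in all 3 failure arrays.

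On the log2 scale, the SD was larger in hypertrophy than in wild type for 10 of the 11 member probe sets above the floor on the first type, and for 81.5% of all tested probe sets of that type. Hypertrophy replicate 1 had the lowest of the 16 values in 5 of the 11 and the highest in 1, Bcl2l1 99027_at. Over all tested probe sets that array was lowest in 31.1% and highest in 4.10%. Hypertrophy replicate 7, the array with the lowest Gapdh ratio, was highest in 2 (Mcl1 and Bcl2l2) and lowest in 1 (Casp9 100367_g_at), beside 25.9% and 8.81% of all tested probe sets. The counts are therefore not read as particular to the members. Across the 16 arrays the log2 values of Mcl1 correlated with those of Bnip3 at r = 0.693, Cycs at 0.611 and Bcl2l2 at 0.602, while Cycs and Bcl2l1 99027_at ran opposite at -0.647. These correlations describe 16 arrays that share scaling and, in part, RNA quality.

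The genes closest to each member in pattern, by Pearson r of log2 values over the 16 arrays among some 6175 probe sets with a single symbol, were as follows. Cycs ran with Cmbl (0.940), with Uqcrb, a subunit of respiratory complex III (0.938), and with Sod2, the mitochondrial superoxide dismutase (0.935). Mcl1 ran with Atp1b3, a sodium pump subunit (0.950), Etf1, a translation termination factor (0.943), and Cul4a, a ubiquitin ligase scaffold (0.934). Bcl2l2 ran with Kpna3, a nuclear import receptor (0.940), Eif1a (0.939) and Cbfb (0.932). Bcl2l1 99027_at ran with Tm2d2 (0.922), Slpi (0.819) and Itga7, a muscle integrin (0.803). The brighter tested probe sets of Bcl2 and Casp9 had weaker partners, Snx21 (0.873) for Bcl2 and Plekho1 (0.849) for Casp9. Bnip3, added to this list after its values were seen, ran with Septin7 (0.891), Pkp4 (0.866) and Plp2 (0.848).

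The rest of the apoptosis, mitophagy and autophagy machinery was read through 7 lists, from which 92 genes were tested. None was called in failure against wild type, in hypertrophy against wild type or in failure against hypertrophy. On the second array type, which alone measured some of these genes, the shares called among all tested probe sets were 0.357%, 0.171% and 0.0286% in that order. Counts at an unadjusted limma p under 0.05 were 9, 4 and 10 of 92, against 12.2%, 9.77% and 8.67% of all tested probe sets of the second type and the shares given above for the first. Median changes were 0.09, -0.04 and 0.09. The genes described next are those of smallest p in each list in the comparisons of failure and of hypertrophy with wild type. Failure against hypertrophy lies outside that rule, and its genes were chosen after their values were seen. All 10 genes with an unadjusted p under 0.05 there had positive changes, between 0.22 (Traf2) and 1.12 (Tnfrsf12a). They were Tnfrsf12a, Epas1, Birc3, Atg7, Casp12, Tspo, Ddit4, Traf2, Cdkn1a and Vegfa, with adjusted p-values of 0.286 to 0.472. Over all tested probe sets 60.9% of the first type and 56.1% of the second had positive changes in that comparison. The positive share among all probe sets under that limma p was not taken. The direction is therefore not read as particular to these genes. Tnfrsf12a, the TWEAK receptor, averaged 356 ± 58.7 in failure (SD, n = 3), 175 ± 67.7 in hypertrophy (SD, n = 8) and 242 ± 47.2 in wild type (SD, n = 5), and failure differed from hypertrophy by 1.12 ± 0.30 (adjusted p = 0.286). Its samples ranged over 288 to 390 in failure, 76.4 to 274 in hypertrophy and 179 to 292 in wild type.

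Of 13 other BCL2 family and associated genes tested, 9 had positive changes in failure against wild type, with a median of 0.08 and none under an unadjusted p of 0.05. Bik, a pore-promoting relative that binds the inhibitors, had 0.23 ± 0.11 (adjusted p = 0.483) and Bag3, a co-chaperone of selective autophagy in muscle, 0.39 ± 0.23 (adjusted p = 0.596). With the Actb ratio as a covariate these changes were 0.35 and 0.63. In hypertrophy against wild type the pore former Bak1 had -0.19 ± 0.13 and the pore-promoting Bmf 0.15 ± 0.09 (adjusted p = 0.960 and 0.633).

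Among 10 caspases, apoptosome genes and their inhibitors, Birc3, a ubiquitin ligase that restrains cell death below death receptors, had the smallest p in failure against wild type. It averaged 282 ± 23.4 in failure (SD, n = 3) and 217 ± 19.9 in wild type (SD, n = 5) on the second array type, and differed by 0.38 ± 0.12 (adjusted p = 0.196). Casp12, a caspase of the endoplasmic reticulum in mouse, had 0.40 ± 0.19 (adjusted p = 0.468), and 0.64 with the Actb ratio as a covariate. Among 9 death receptor and adaptor genes, Traf2, an adaptor of tumour necrosis factor receptors, averaged 860 ± 46.5 in failure (SD, n = 3) and 709 ± 33.9 in wild type (SD, n = 5), a difference of 0.28 ± 0.10 (adjusted p = 0.284). Ripk3, the kinase of necroptosis, had 0.32 ± 0.14 (adjusted p = 0.361). In hypertrophy Tnfrsf12a had -0.55 ± 0.25 against wild type (adjusted p = 0.492), and in failure 0.56 ± 0.32 (adjusted p = 0.492).

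Of 16 mitophagy and mitochondrial dynamics genes, 1 had an unadjusted p under 0.05 in failure against wild type. This was Ppif (cyclophilin D, a regulator of the permeability transition pore of mitochondria), at 305 ± 37.3 in failure (SD, n = 3) and 440 ± 76.0 in wild type (SD, n = 5), a difference of -0.52 ± 0.25 (adjusted p = 0.462). With the Actb ratio as a covariate the Ppif difference was -0.21. In hypertrophy against wild type the fission adaptor Fis1 had 0.69 ± 0.38 and the fusion GTPase Opa1 0.33 ± 0.17 (adjusted p = 0.960 and 0.538). Of 17 core autophagy genes, 13 had positive changes in failure against wild type. The smallest p-values belonged to Atg7, the activating enzyme of both autophagy conjugation systems, at 0.30 ± 0.11 (adjusted p = 0.319), and Rb1cc1, a scaffold of the initiating kinase complex, at 0.48 ± 0.22 (adjusted p = 0.390).

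Of 19 p53, hypoxia and FOXO regulators and targets, 11 had positive and 8 negative changes in failure against wild type, with a median of 0.20. Ddit4, a stress-induced brake on mTOR signalling, averaged 370 ± 22.0 in failure (SD, n = 3) and 229 ± 15.9 in wild type (SD, n = 5). The groups did not overlap, and failure lay wholly above wild type in 8.58% of the tested probe sets of the first type. The Ddit4 difference was 0.69 ± 0.26 (adjusted p = 0.337), and 0.27 with the Actb ratio as a covariate. A fit of the failure and wild type arrays alone gave Ddit4 an adjusted p of 0.0180. That fit called 122 probe sets of the first type, against 10 in the main fit. Epas1, which encodes the hypoxia-inducible factor HIF-2α, averaged 164 ± 26.4 in failure (SD, n = 3) and 118 ± 9.28 in wild type (SD, n = 5), also without overlap, a difference of 0.46 ± 0.17 (adjusted p = 0.319). With the Actb ratio as a covariate the Epas1 difference was 0.11. Foxo3, a transcription factor that activates Bnip3 in muscle, averaged 420 ± 229 in hypertrophy (SD, n = 8) and 201 ± 91.5 in wild type (SD, n = 5), with hypertrophy samples between 181 and 797, a difference of 0.98 ± 0.33 (adjusted p = 0.960).

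Of 8 genes that import, mature or work with cytochrome c, Hccs, the enzyme that attaches haem to cytochrome c, was the one with an unadjusted p under 0.05 in both comparisons with wild type, which share their wild type arrays. It averaged 82.1 ± 11.7 in failure (SD, n = 3) and 128 ± 13.8 in wild type (SD, n = 5), and differed by -0.65 ± 0.21 (adjusted p = 0.259). A fit of those arrays alone, the one with 122 calls on the first type, gave an adjusted p of 0.0322. The Actb ratio as a covariate gave a difference of -0.37. In hypertrophy it averaged 98.2 ± 25.7 (SD, n = 8), a difference of -0.42 ± 0.16 (adjusted p = 0.960). The complex IV subunit Cox4i1 had -0.35 ± 0.20 in failure against wild type (adjusted p = 0.570), and -0.15 with the Actb ratio as a covariate. Cyc1, the complex III subunit that passes electrons to cytochrome c, had -0.17 ± 0.10 in hypertrophy against wild type (adjusted p = 0.960). The other genes of smallest p, Casp6, Aifm1, Ripk3, Rb1cc1, Atg4b and Akt2 in hypertrophy against wild type, had changes of -0.28 (Akt2) to 0.40 (Rb1cc1) with adjusted p-values of 0.468 to 0.960, and Tspo, a protein of the outer mitochondrial membrane, had 0.26 ± 0.14 in failure against wild type (adjusted p = 0.535).

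**Figure D4:**
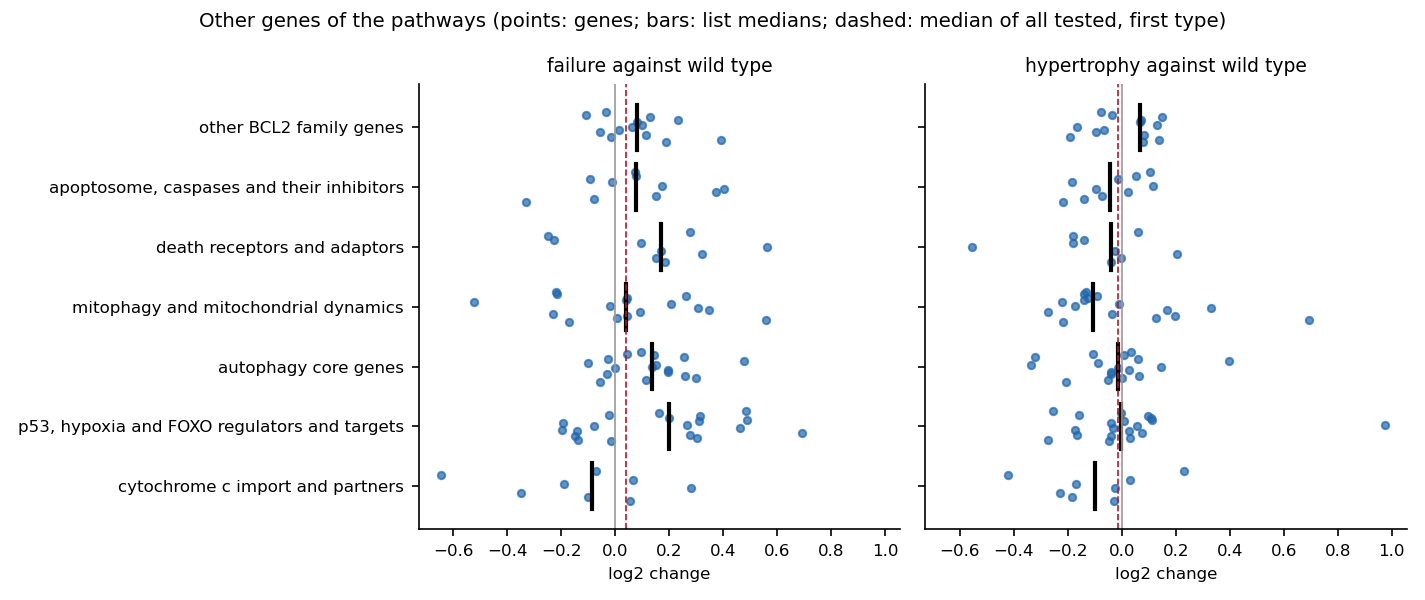
Log2 changes of the 92 tested pathway genes by list (points) with list medians (bars), for failure against wild type (left) and hypertrophy against wild type (right). The dashed line is the median of all tested probe sets of the first type, at 0.04 and -0.01. In failure Hccs lies lowest at -0.65 and Ddit4 highest at 0.69, and no gene passed the adjusted threshold.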

How the data were processed

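Total RNA of mouse ventricle was measured on 2 Affymetrix array types, 16 arrays each. The deposited values are linear intensities, 1 per probe set. The authors' scaling and summary of probes are unknown here. Trimmed means varied by 4.82% and 3.31% (coefficient of variation) and medians by 6.60% and 4.65%, so values were used as deposited, with the floor and filter described above, which left 6980 of 12488 and 7004 of 12477 probe sets. The floor understates changes of dim probe sets. Precision is limited by the number of arrays, which give no counts. Each type was fitted with limma 3.58.1 in R 4.3.3 (lmFit, eBayes), 1 model over all groups, with Benjamini-Hochberg adjustment over all tested probe sets of a type and comparison. The fit was tested on simulated data. The simulation gave each probe set the same spread in all groups, so it cannot check the fit where spreads differ.

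Names of probe sets came from the platform annotation, updated through gene identifiers to RefSeq GRCm38.p6. Of the 9 members, 8 are in the promoter table. A gene of a list is represented by its brightest probe set, on the first type where present, and the 2 genes per list of smallest p in each comparison with wild type are named. The members and lists were chosen with earlier results of these data known. A ratio of Bax to Bcl2 was planned and could not be formed. Alternatives covered scaling, floor, filter, variance trend, replicate block, covariates and left-out arrays. Figures were drawn with matplotlib 3.10.9.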

Additional observations from a re-analysis of the deposited data

Results flagged for a closer look

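In 24 groups of 5 or 8 arrays, formed by member probe sets above the floor, 3 held an array whose gap to its nearest neighbour was a large share of the group's range by Dixon's critical values. Gaps and ranges were taken on log2 values, while the signals below are linear intensities. Chance picks about 1 group in 20. Mcl1 93093_at was lowest in hypertrophy replicate 1, at 182, with a gap of 0.596 of the range. Casp9 100368_at, below the filter, was highest in hypertrophy replicate 8, at 119, with a gap of 0.629. Bcl2 98870_at was highest in wild type replicate 5, at 201, with a gap of 0.788.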

How the results depend on the processing

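No member was called in any comparison under any alternative, including each array left out in turn, where member calls stayed at 0. Counts over all probe sets moved more. In failure against wild type on the first array type 10 were called, and 30 with quantile scaling, 33 with median scaling, 22 without the filter, 31 with a filter at the floor (chosen after seeing the data, as were the pairings of a dropped filter with a further choice), 34 without hypertrophy replicates 6 and 7, 40 with the Actb ratio as a covariate, 122 with only the compared groups and 3 with the replicate block. On the second type 25 were called, and 40 with median scaling, 55 without the filter, 70 without those 2 hypertrophy arrays, 102 with the Actb covariate, 193 with only the compared groups and 6 with the replicate block. In hypertrophy against wild type the first type had 0, and 1 without the filter. The second had 12, and 3 with the replicate block and 7 without the 2 hypertrophy arrays. In failure against hypertrophy the first type had 0, and 10 without the filter and 11 with the filter at the floor. The second had 2, and 12 without the filter, but 0 with the replicate block, without the 2 hypertrophy arrays or with only the compared groups. Deviations of same-numbered arrays correlated at -0.191 to 0.363 on the first type and -0.183 to 0.141 on the second. Arrays of different numbers were not set beside them, so whether the replicate numbers pair the arrays was not settled.

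With 1 array left out, counts on the first and second type were 0 to 51 and 4 to 79 in failure against wild type, 0 to 1 and 5 to 25 in hypertrophy against wild type, and 0 to 24 and 0 to 13 in failure against hypertrophy. Failure against wild type on the first type had 0 calls without failure replicate 1 and 51 without failure replicate 3.

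Small member changes turned sign without passing the threshold on either side. With median scaling, failure against wild type was -0.031 for Bcl2 98869_g_at, -0.044 for Bcl2l2 and -0.000153 for Casp9 100367_g_at. With the Actb covariate it was -0.0057 for Bcl2l1 99027_at, -0.016 for Casp9 100366_at, -0.13 for Casp9 100367_g_at and 0.21 for Bcl2l1 99026_at, and Bcl2l1 99027_at was -0.014 between hypertrophy and wild type. The same covariate gave, in failure against hypertrophy, 0.29 for Bcl2l2 and 0.16 for Cycs. With the replicate block, failure against hypertrophy was 0.13 for Bcl2l2 and 0.23 for Cycs, hypertrophy against wild type was -0.029 for Bcl2 98870_at and -0.056 for Mcl1, and failure against wild type was 0.060 for Bcl2l1 99026_at. Without hypertrophy replicates 6 and 7, failure against hypertrophy was 0.052 for Bcl2l2 and 0.048 for Cycs, and hypertrophy against wild type was -0.010 for Bcl2 98870_at, -0.0015 for Bcl2l2 and -0.038 for Mcl1. With 1 array left out, ranges that crossed 0 were -0.011 to 0.11 (Bcl2 98869_g_at), -0.17 to 0.042 (Bcl2l1 99026_at, positive at 0.0091 without wild type replicate 4 and at 0.032 without failure replicate 2) and -0.067 to 0.18 (Bcl2l2) in failure against wild type, -0.0021 to 0.18 (Bcl2 98870_at), -0.21 to 0.040 (Bcl2l2) and -0.21 to 0.059 (Cycs) in failure against hypertrophy, and -0.0019 to 0.067 (Bcl2 98870_at), -0.029 to 0.10 (Bcl2l1 99027_at) and -0.028 to 0.14 (Mcl1) in hypertrophy compared with wild type. The cause of these turns was not tested. Dim probe sets, Bnip3 among them, lie close to background, and with 3 failure arrays changes of the sizes seen here were not resolved.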
